A study of Mus musculus with 32 samples.

Results

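Immediate early response genes are the genes that cells switch on first after a stimulus. The 10 described here are Fos, Fosb, Jun, Junb, Egr1, Atf3, Dusp1, Zfp36, Ier2 and Ier3. They were chosen by symbol, with earlier results of these data known. Each was matched to its row in all 4 deposited tables, which list 22609 genes each (culture and Rag1-/- hosts) or 25277 genes each (day 4 and day 6). The samples were cultures of E0771, a mammary cancer line derived from a C57BL/6 mouse, and whole tumours grown from it, which also hold host cells. In all, 32 libraries fell into 8 groups.

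In culture, 3 libraries of Ddr1 wild-type cells (titled E0771-P, EV and Ctrl, here libraries 1, 2 and 3) were set against 2 libraries of Ddr1 knockout derivatives (3-6 and 3-7, here libraries 1 and 2). Another table compared 5 knockout with 5 wild-type tumours grown in Rag1-/- mice, whose lymphocytes do not mature. The day 4 set held 4 wild-type and 5 knockout tumours in C57BL/6 mice, which have an intact immune system, after transplantation from Rag1-/- mice. The day 6 set held E0771 tumours in C57BL/6 mice, 4 treated with IgG and 4 with an antibody to the extracellular domain of human DDR1 (hDDR1 ECD). No Ddr1 genotype is given for the day 6 tumours. The labels give no age of the mice, and nothing in them ties a library to its own animal or dish. The p-values therefore reflect the spread between these libraries, which may be technical.

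Growth factors, cytokines, cell stress and tissue handling all induce these genes within minutes, without new protein synthesis. ERK and p38 kinases phosphorylate factors that already sit on their promoters, such as SRF with its ELK partners and CREB. FOS and JUN family proteins pair to form the transcription factor AP-1, while DUSP1, which dephosphorylates MAP kinases, and ZFP36 (tristetraprolin), which speeds the decay of AU-rich mRNAs, shut the response down. In mammary carcinoma cells the pathway lies downstream of EGF-family and other receptor tyrosine kinases. DDR1, the knocked-out gene's product, is a receptor tyrosine kinase that binds collagen.

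Ddr1 stood at 3.98 and 5.59 RPKM in the knockout and 35.9 to 44.6 in the wild-type culture libraries, and in no table did its knockout and wild-type groups overlap. RPKM is reads per kilobase of exon per 1e6 reads counted in the table. At day 6 Ddr1 stood at 3.34 to 4.63 with IgG and 3.87 to 5.97 with the antibody, below every wild-type library of the other tables. The knockout tumours stood at 6.98 to 8.87 in Rag1-/- hosts and 5.84 to 10.4 at day 4. Both day 6 groups were thus no higher than knockout libraries, and the reason was not tested. Of 7 epithelial markers, 2 reached a mean of 10 normalized counts in culture and 3 in Rag1-/- hosts. Depth was 18967300 to 39732635 reads per library. Of the 10 genes, 5 overlap another annotated gene, namely Jun (Junos), Junb (Prdx2), Atf3 (Gm24748), Dusp1 (Ergic1 and 3 others) and Zfp36 (Gm44710). Whether counting used strand is not given in the sources used here, so reads in these overlaps are uncertain.

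Sequences upstream of the annotated starts are shown as background. Any link between them and the levels of the members was not tested. RefSeq windows of the 250 bases before the start, on build GRCm38.p6, were matched for 8 of the 10 genes. Of these windows 5 (Fosb, Atf3, Dusp1, Zfp36 and Ier3) overlap a GENCODE exon, and the Zfp36 window lies wholly inside the GENCODE exon of Zfp36. Egr1 and Ier2 had no entry. TGACG, the core of the cAMP response element bound by CREB and ATF factors, was searched on both strands and was present in 5 of the 8 windows, against 17.8% of all 32851 windows of this length. The whole element, TGACGTCA, was present in the Dusp1 window alone among the 8, against 1.55% of all windows. In the window of Fos, at chr12:85473640-85473889 on the plus strand, both copies of the core are in capitals.
Fos: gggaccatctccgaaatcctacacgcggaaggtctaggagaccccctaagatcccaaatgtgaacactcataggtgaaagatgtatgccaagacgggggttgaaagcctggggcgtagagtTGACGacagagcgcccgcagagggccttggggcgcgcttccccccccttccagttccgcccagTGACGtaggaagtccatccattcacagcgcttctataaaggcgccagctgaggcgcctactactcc
The other 4 genes with the core are shown by the 30 bases around it, with the core or the whole element in capitals. Fosb is at chr7:19310088-19310117, Junb at chr8:84978837-84978866 and Atf3 at chr1:191183334-191183363, and the Dusp1 stretches are at chr17:26508646-26508675 and chr17:26508598-26508627, all on the minus strand.
Fosb: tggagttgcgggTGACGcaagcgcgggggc
Junb: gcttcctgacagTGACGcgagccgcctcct
Atf3: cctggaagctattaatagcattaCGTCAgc
Dusp1, far copy: ctcctaggccgaTGACGtctttgcttttgg
Dusp1, near copy: cggtagggcgggTGACGTCAccgcccggtc
In Atf3 the core is on the other strand and reads CGTCA. The copy nearest to the start begins 66 bases before it in Fos, 60 in Fosb, 106 in Junb and 7 in Atf3, and the whole element in Dusp1 begins 143 bases before it. The serum response element's CArG box was matched in Zfp36 alone (1.47% of all windows), the EGR1 motif GCGNGGGCG in Fosb and Zfp36 (4.70%) and TATAAA in Fos alone (12.4%). The AP-1 motif TGANTCA was in none of the 8 (6.75%). Such a match is a description of letters, not a bound site. Bases farther upstream and variant forms of these motifs were not searched. A motif missing here may therefore still be present in the promoter.

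Levels in culture and in tumours differed most for Fos and Egr1. Fos, the founding AP-1 subunit, stood at 1.15, 0.797 and 0.682 RPKM in wild-type cells, against 0.793 and 0.808 in the knockout lines. In the 27 tumour libraries Fos stood at 5.49 to 29.5 RPKM, with a median of 13.0. Every culture library was below every tumour, and the medians differed 16.3-fold.

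Egr1, a zinc-finger transcription factor, was nearly silent in culture, at 0.0381, 0.0363, 0.0238, 0.0409 and 0.0246 RPKM in wild-type libraries 1 to 3 and knockout libraries 1 and 2. It stood at 0.931 to 6.90 RPKM in the tumours, with a median of 2.07. Culture and tumours did not overlap for Egr1 either, and the medians differed 57.1-fold. The culture levels of Egr1 rested on 5, 6, 4, 6 and 4 reads, in the order given above. The size of that ratio is therefore uncertain, although the direction was the same in every library. Over all genes with a level, 16.1% were higher in every tumour than in every culture library, against these 2 of the 10. Egr1 counted as a gene with a level only through the tumours, since its culture levels alone were too low. The tables were normalized separately, so no test was made across them. Tumours hold host cells that culture lacks, and fewer cells of a type and less RNA per cell cannot be told apart in bulk RNA.

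The other 8 genes overlapped between culture and tumours. The ratio of tumour to culture medians was 1.45 for Atf3, 1.55 for Fosb, 1.82 for Jun, 1.94 for Ier2, 1.98 for Junb, 2.01 for Zfp36 and 2.42 for Dusp1. Ier3, a gene for a short-lived protein that affects cell survival, was the exception in direction, with a ratio of 0.431. Wild-type cells held it at 726, 444 and 554 RPKM, knockout cells at 716 and 565, and the tumours at 108 to 569.8. Of all genes with a level, 11.4% were higher in every culture library than in every tumour, and none of the 10 was.

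**Figure D1:**
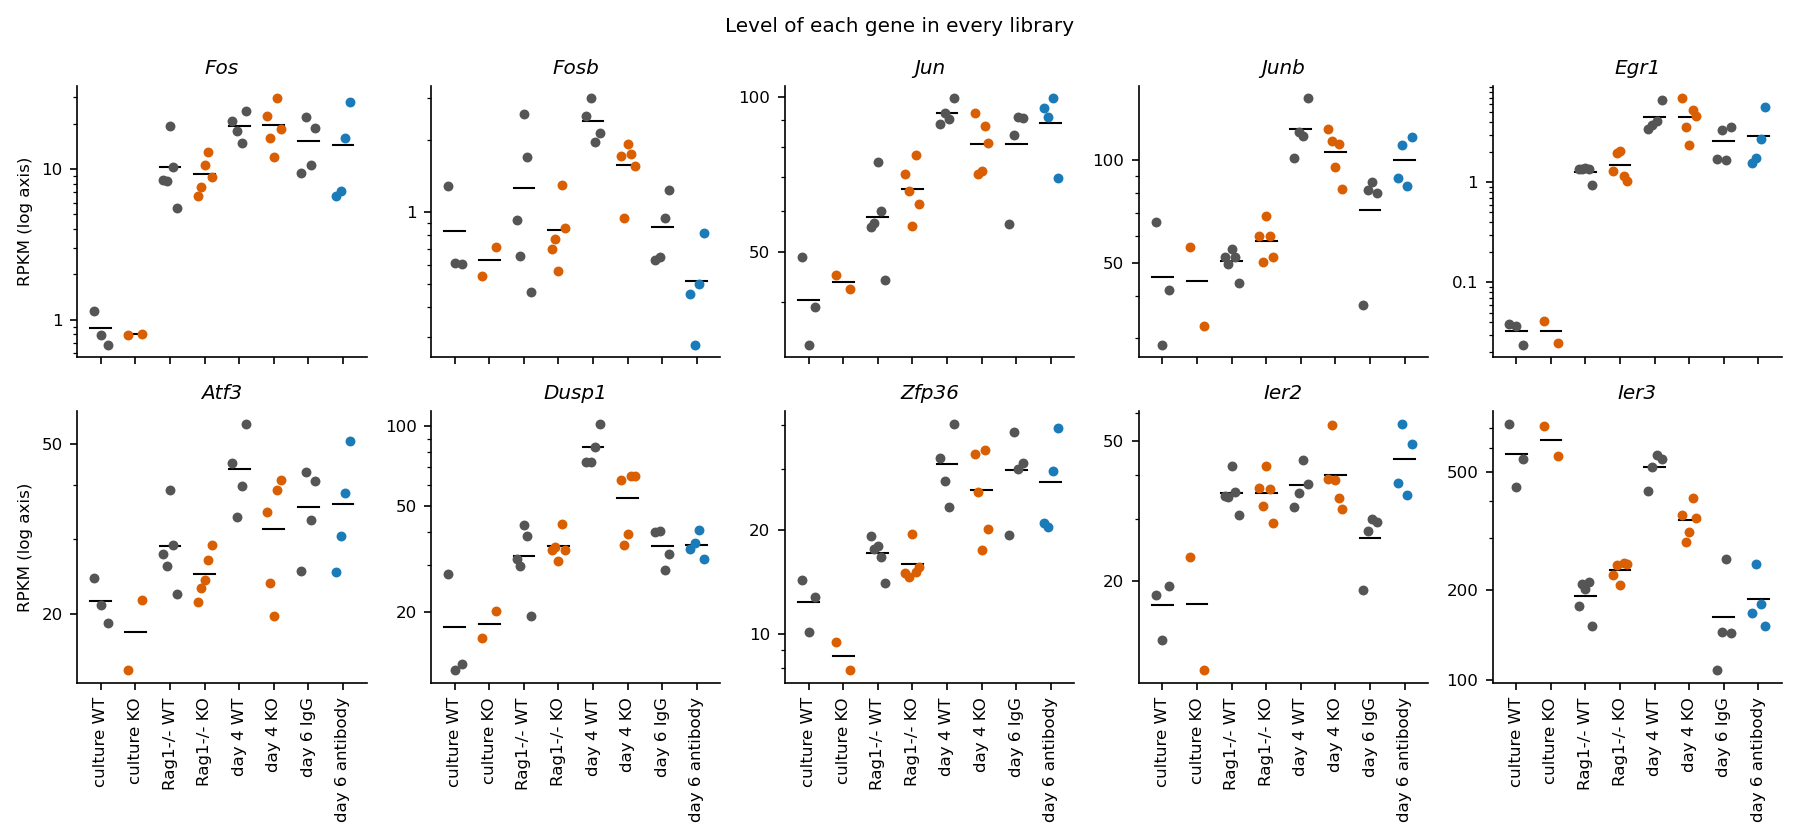
RPKM of the 10 genes in every library, on a log axis, by group; points are libraries, black lines are group means, and WT and KO are Ddr1 wild-type and knockout. Fos and Egr1 are lower in all 5 culture libraries than in all 27 tumours, and Ier3 is the gene with the highest level in each group.

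Within each group the genes kept much the same order per length. Ier3 led in all 8 groups, at a mean of 163 ± 63.4 RPKM (SD, n = 4) in day 6 IgG tumours to 641 ± 106 (n = 2) in knockout cells, and its range overlapped that of no other member. Jun and Junb, the JUN-family AP-1 subunits, came next, with overlapping ranges in every group except day 4 wild-type tumours, where Junb was at 123 ± 21.0 and Jun at 92.8 ± 4.65 (n = 4 each). Atf3 (a stress-induced CREB/ATF factor), Dusp1, Ier2 (a nuclear protein) and Zfp36 lay in the middle, and most neighbours among them overlapped. Fos, Egr1 and Fosb were the 3 lowest in every group. Fosb and Egr1 were not separated in tumours of Rag1-/- hosts, at 1.26 ± 0.862 and 1.28 ± 0.195 RPKM (SD, n = 5) in the wild-type ones.

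Between the tumour tables, Junb, Egr1 and Ier3 were higher in all 9 day 4 libraries than in all 10 libraries from Rag1-/- hosts. Their medians in RPKM were 114 against 52.1 for Junb, 4.06 against 1.35 for Egr1 and 408 against 212 for Ier3. Of all genes with a level, 12.9% were higher without overlap at day 4, against these 3 of the 10, and 0 of the 10 were lower without overlap (27.8% of all genes). These tables too were normalized separately, and host, transplantation and table cannot be told apart.

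In culture, the comparison of knockout with wild-type cells called none of the 9 members that could be tested. Egr1 was under the minimum mean of 10 normalized counts. Over all 11911 genes tested with limma, 0.327% were called changed at an adjusted p under 0.05. An unadjusted p under 0.05 was reached by 1 member, Zfp36, and by 18.8% of all genes. Without library E0771-P it was reached by 4 members and by 3637 of 11736 genes. Without Ctrl it was reached by 0 members and by 1361 of 11933 genes. On recovered reads, edgeR called 0 members (0.21% of all genes) and DESeq2 0 (8.89%). Fos stood at 92.6, 64.0 and 54.1 normalized counts in wild-type cells, against 64.0 and 66.6 in knockout ones, and Jun at 5338, 3596 and 4205 against 4940.5 and 4728. For both, the knockout libraries lay inside the wild-type range.

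Zfp36 was the 1 member whose groups did not overlap in culture. It stood at 1703, 1204 and 1499 in wild-type cells, against 1128 and 958, and both knockout libraries were below all 3 wild-type libraries. Its log2 change was −0.48 with SE 0.17 (limma adjusted p = 0.199). Of all genes tested, 17.7% were lower without overlap, against 1 of the 9 members tested.

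The wild-type library titled E0771-P stood apart for several members. Dusp1 stood at 3137 there, against 1358 and 1412 in the other wild-type libraries and 1812 and 2328 in the knockout ones. Fosb stood at 275 there, against 129.8 and 128, and 115 and 156. Without E0771-P, Dusp1 was called higher in knockout cells, at a log2 change of 0.57 with SE 0.14 (limma adjusted p = 0.0387), and 1655 genes were called instead of 39.

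In tumours of Rag1-/- hosts, no member was called between knockout and wild-type although 22.7% of all 12795 genes tested were. No member's groups stood apart without overlap, against 15% of all genes. Only Ier3 reached an unadjusted limma p under 0.05 (36.1% of all genes). On recovered reads, edgeR called 0 members (22.7%) and DESeq2 called 1 (24.9%). Ier3 came closest to the threshold. It stood at 4269.6, 5102, 4948, 5258 and 3615 normalized counts in wild-type tumours, against 5385, 5769, 4846, 5892 and 5799 in knockout tumours. Of the 5 knockout tumours, 4 lay above every wild-type tumour, and library 3 lay within the wild-type range. The log2 change was 0.27 with SE 0.09 (limma adjusted p = 0.0529).

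Ier3 was called higher in these knockout tumours in 6 of the other settings, among them DESeq2 on recovered reads (adjusted p = 0.0291), the fit without wild-type library 4 (0.0310) and the fit without knockout library 3 (0.0250). In the authors' deposited table its adjusted p was 0.110.

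The AP-1 subunits overlapped widely in Rag1-/- hosts. Fos stood at 425, 417, 984, 528 and 271 normalized counts in wild-type tumours, against 328, 374, 512, 642 and 437 in knockout tumours. The wild-type tumours spanned the knockout range on both sides, and the log2 change was −0.10 with SE 0.27 (limma adjusted p = 0.823). Fosb stood at 123, 87.3, 344, 231 and 60.8 against 91.9, 101, 73.2, 170.4 and 112, with a log2 change of −0.40 with SE 0.38 (limma adjusted p = 0.487). For both, wild-type library 3 was the highest of the 10 tumours and wild-type library 5 the lowest.

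Jun and Junb differed by 0.16 each on the log2 scale in Rag1-/- hosts (SE 0.12 and 0.08, limma adjusted p = 0.362 and 0.175). Atf3 differed by −0.23 (SE 0.13, limma adjusted p = 0.210), Egr1 by 0.15, Dusp1 by 0.14, Zfp36 by −0.14 and Ier2 by −0.04. Thus 5 of the 10 changes lay below 0, as did 50.7% of all genes, and 5 lay above.

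At day 4 in C57BL/6 hosts, most members were lower in knockout than in wild-type tumours, but limma called none. It called only 5 of all 14105 genes tested (0.0354%). The median log2 change of the 10 members was −0.30, against 0.00 over all genes, and 9 of the 10 changes lay below 0 (49.7% of all genes). Knockout and wild-type tumours did not overlap for 4 members, Ier3, Dusp1, Fosb and Jun, all lower in knockout, against 3.85% of all genes. An unadjusted limma p under 0.05 was reached by 5 members and by 15% of all genes. It was reached by 3 members with upper-quartile rescaling, quantile normalization or the replicate number as a block, and by 3 without wild-type library 3 or 4 or knockout library 2 or 3. In those settings 1478 to 2439 genes in all reached it, against the 2116 genes (15%) counted above. The members vary together between libraries, so they are not independent counts. They were also chosen with earlier results of these data known, so the shares set beside them are a description.

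Ier3 stood at 11410.5, 14071, 15600.1 and 14589 normalized counts in wild-type tumours, against 8757, 7249, 8322, 10593 and 9407 in knockout tumours. All 5 knockout tumours were below all 4 wild-type tumours. The group means were 13918 ± 1788 (SD, n = 4) and 8866 ± 1245 (n = 5), a log2 change of −0.65 with SE 0.13 (limma adjusted p = 0.115), or 0.636 times the wild-type level. Ier3 lies on chromosome 17 (35821684 to 35822923, plus strand), 117 kb from Ddr1.

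Dusp1 stood at 5684, 5842, 6717 and 7921 in wild-type tumours, against 4503, 2601, 3043, 4944 and 5119 in knockout tumours at day 4. The groups did not overlap, and knockout libraries 2 and 3 were the lowest. The log2 change was −0.73 with SE 0.21 (limma adjusted p = 0.190). DESeq2 on recovered reads called both genes lower in knockout tumours, with adjusted p = 0.000884 for Ier3 and 0.0442 for Dusp1. It also called 4.88% of all genes. EdgeR called 0 members and 0.0284% of all genes. In the authors' deposited table the adjusted p-values were 0.00163 for Ier3 and 0.0493 for Dusp1.

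Fosb stood at 365, 445, 297 and 311 in wild-type tumours, against 231, 130.2, 280.1, 249 and 229.9 in knockout tumours, with a log2 change of −0.69 with SE 0.23 (limma adjusted p = 0.233). Jun stood at 6592, 7094, 6997 and 7403 against 6415, 4964, 5379, 6442 and 6172, with a log2 change of −0.26 with SE 0.10 (limma adjusted p = 0.287). For both AP-1 subunits the highest knockout tumour lay just under the lowest wild-type tumour.

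Atf3 and Junb overlapped between the day 4 groups. Atf3 stood at 2265, 1739.5, 2074 and 2801 in wild-type tumours, against 1615, 1122, 999, 1926 and 2108 in knockout tumours, a log2 change of −0.55 with SE 0.24 (limma adjusted p = 0.312). Junb stood at 5459, 6686, 6586 and 8179 against 6153, 5764, 5153, 5903 and 4517, a log2 change of −0.29 with SE 0.14 (limma adjusted p = 0.357). In both, 1 wild-type library was lower than at least 2 knockout tumours.

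The remaining 4 members differed less at day 4. Zfp36 differed by −0.32 (SE 0.21), Fos by −0.08 (SE 0.24), Egr1 by −0.07 (SE 0.30) and Ier2 by 0.01 (SE 0.16) on the log2 scale, all with overlapping groups and limma adjusted p-values up to 0.978. So Fos, with 1139, 1008, 848 and 1330.2 in wild-type tumours, against 1141, 831, 669, 1594 and 1037 in knockout tumours, did not separate the groups where Fosb did.

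Markers of other cells also differed between the day 4 groups. The 8 keratinocyte markers summed to 872 to 1636 normalized counts in wild-type and 1734 to 15861 in knockout tumours, with Lor at 0 in all wild-type libraries. The 5 red blood cell markers summed to 47.1 to 140.2 and 279 to 1723, all of it from Alas2, since the 4 globin genes were at 0 in every library. The summed level of the 7 epithelial markers overlapped, at 11232 to 15109 and 10480 to 17402, but 6 of the 7 had a log2 change above 0, with a median of 4.07. All 7 adipocyte markers (810 to 6673 and 2870 to 68116) and all 7 endothelial markers (1709 to 7350 and 5692 to 20452) were above 0 as well, with overlapping sums. Of the 7 epithelial markers, 3 had a mean under 10 normalized counts in wild-type tumours, against 0 in knockout tumours. Those 3 passed the filter only through the knockout group, so their direction and the median of 4.07 carry little weight. The 7 neutrophil markers summed to 2928 to 14544 and 2221 to 7990, and the 6 of them tested were below 0. The part of these cells in the lower levels of the members was not tested.

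**Figure D2:**
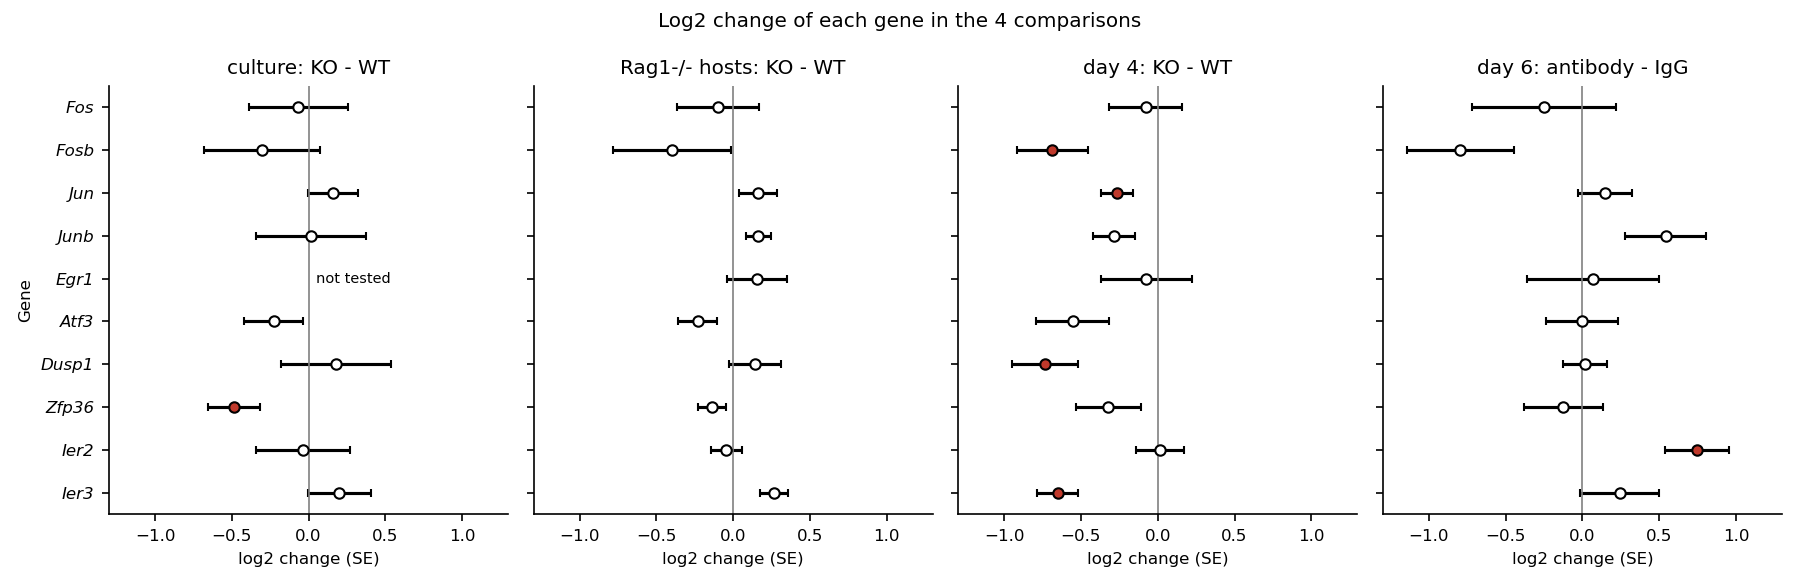
Log2 change of each gene (points) with its SE (bars) in the 4 comparisons; red points mark genes whose 2 groups did not overlap. At day 4, 9 of 10 points lie below 0 and 4 are red, while Egr1 was not tested in culture.

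The knockout effect on Ier3 differed between the hosts. Its log2 change was 0.27 in Rag1-/- hosts and −0.65 at day 4, a difference of −0.92 (SE 0.16, adjusted p = 0.00403 from the limma estimates of both tables, over 11247 genes). Ier3 was the 1 member called by this test, against 2.99% of all genes. The difference was called with each of the 19 libraries left out in turn, at −1.01 to −0.83 with adjusted p-values of 0.00202 to 0.0227. Host, the step of transplantation and table cannot be told apart here.

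Dusp1 had the next largest difference between hosts, −0.88 (SE 0.27, adjusted p = 0.0873), from 0.14 in Rag1-/- hosts to −0.73 at day 4. Jun differed by −0.43 (SE 0.16, adjusted p = 0.149) and Junb by −0.45 (SE 0.16, adjusted p = 0.139), each with a value above 0 in Rag1-/- hosts and below 0 at day 4. The difference was −0.32 for Atf3, −0.29 for Fosb, −0.23 for Egr1, −0.18 for Zfp36, 0.02 for Fos and 0.06 for Ier2, with adjusted p-values of 0.536 to 0.984 from the same limma estimates.

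**Figure D3:**
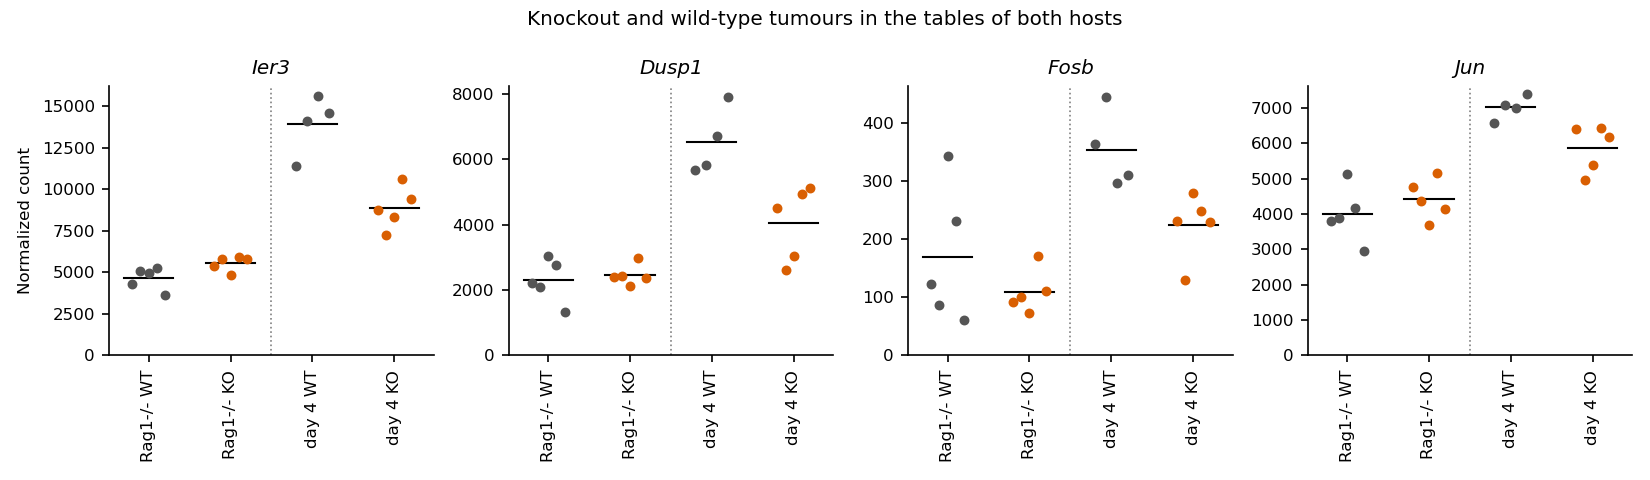
Normalized counts of Ier3, Dusp1, Fosb and Jun in wild-type (grey) and knockout (orange) tumours of Rag1-/- hosts and at day 4; points are libraries, black lines are group means, and the dotted line parts tables that were normalized separately. At day 4 the groups of these 4 genes do not overlap, while in Rag1-/- hosts they do.

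At day 6, the comparison of antibody with IgG called no member. Limma called 0% of the 14155 genes tested, while edgeR called 0 genes and DESeq2 called 166 (1.17%), none of them a member. An unadjusted limma p under 0.05 was reached by 2 members, Fosb and Ier2, and by 1218 genes in all (8.6%). Ier2 was the 1 member whose groups did not overlap, against 2.03% of all genes higher without overlap. It stood at 864, 1284, 1358 and 1288 normalized counts with IgG and 1737, 2602, 1521 and 2248 with the antibody. All 4 antibody tumours were above all 4 IgG tumours. The means were 1199 ± 225 and 2027 ± 489.8 (SD, n = 4 each), a log2 change of 0.75 with SE 0.21 (limma adjusted p = 0.517), and the adjusted p in the authors' deposited table was 0.0714.

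Fosb, Junb and Fos overlapped between the day 6 groups. Fosb stood at 119, 123, 175 and 222 with IgG and 85.03, 53.0, 88.9 and 153 with the antibody, a log2 change of −0.80 with SE 0.35 (limma adjusted p = 0.517). Junb stood at 2611, 5709, 5901 and 5326 against 6093, 7804, 5495 and 8069, a log2 change of 0.54 with SE 0.26 (limma adjusted p = 0.517). Fos spread most, at 663, 1597, 749 and 1271 against 467, 510.5, 1079 and 1962, so that its antibody tumours held both the highest and the lowest values of the 8.

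The other 6 members at day 6 had log2 changes between −0.12 (Zfp36) and 0.24 (Ier3), with overlapping groups and limma adjusted p-values of 0.689 to 0.997. Jun stood at 5428, 8176, 8672 and 8361 with IgG and 9084, 8878, 9014 and 6648 with the antibody, with 1 low library in each group. The 8 skeletal muscle markers summed to 4553 to 198960 normalized counts with IgG and 197 to 7413 with the antibody, and the 8 keratinocyte markers to 400.3 to 513 and 549 to 6613. The 7 adipocyte markers summed to 757 to 1781 and 1235 to 11398, and all had a log2 change above 0, with a median of 3.48. The 7 epithelial markers, at 5598 to 6217 and 5164 to 16505, all had a log2 change above 0, with a median of 4.54. None of these markers was at 0 in all libraries of a group, but several were near the floor with IgG. There 3 of the 7 epithelial, 5 of the 8 keratinocyte and 2 of the 7 adipocyte markers had a mean under 10 normalized counts. With the antibody 0 of each list did. Those low with IgG passed the filter only through the antibody group, so their changes above 0 and these medians carry little weight. The part of these cells in the day 6 values was not tested.

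Within groups, the members varied together from tumour to tumour. The clearest case was Rag1-/- hosts, where wild-type library 3 was high and wild-type library 5 low for nearly every member. After each group was centred on its own mean, the average log2 deviation of the 10 members was 0.44 in wild-type library 3 and −0.51 in wild-type library 5. At day 6 it was −0.45 in IgG library 1 and 0.40 in antibody library 4. At day 4 no library was beyond 0.27 in size, with −0.27 in knockout library 3 and 0.27 in knockout library 4.

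**Figure D4:**
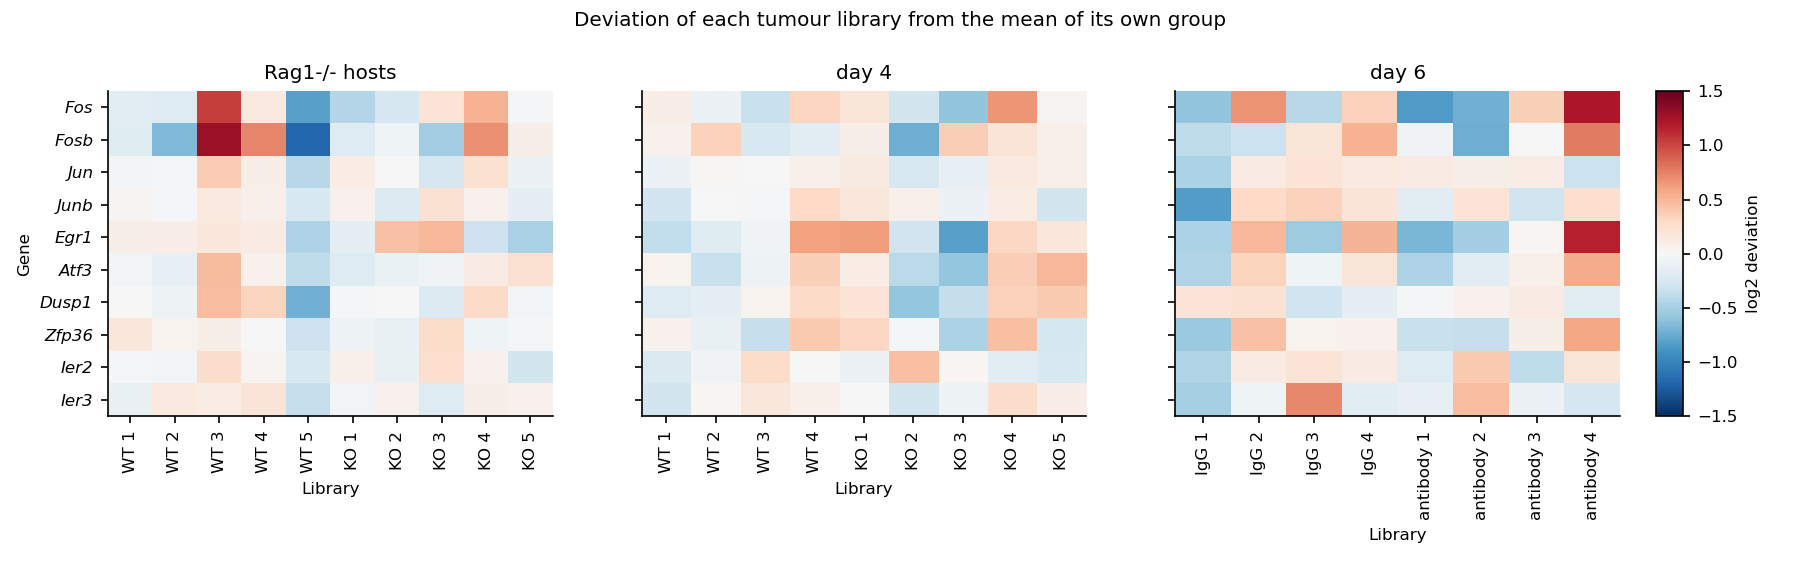
Deviation of each gene in each tumour library from the mean of its own group, in log2 units (red above, blue below). Wild-type library 5 of the Rag1-/- hosts is low and library 3 high for nearly all genes, while at day 6 IgG library 1 is low for 9 of 10 genes.

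In Rag1-/- hosts all 45 pairs of members had a Pearson r above 0 over the 10 centred libraries, with a median of 0.54. Of these, 10 pairs reached an r of 0.8, against 0.961% of all gene pairs. An exact permutation test within groups, adjusted over the 45 pairs, called 7, which were Fos with Fosb and Atf3, Fosb with Jun, Atf3 and Dusp1, Jun with Dusp1, and Junb with Ier2. Fosb with Dusp1 had r = 0.94 (rho = 0.90, exact permutation p = 0.000278, adjusted p = 0.0109), and r = 0.93 without the 2 libraries farthest from the median. Junb with Ier2 had r = 0.92 (rho = 0.92, exact permutation p = 0.00167, adjusted p = 0.0250), with r = 0.96 and 0.95 without the 2 farthest libraries of each gene. It was the 1 pair called by Spearman's rho (adjusted exact permutation p = 0.0438).

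Much of this covariation rested on wild-type library 5. Without it the median r over the 45 pairs was 0.27, and Fos with Atf3 went from r = 0.90 to 0.64 without its 2 farthest libraries. Without wild-type library 3 the median was 0.47.

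At day 4 the median r was 0.44 over 9 libraries, with 34 of 45 pairs above 0 and 6 at 0.8 or more (4.48% of all gene pairs). No pair was called, and the smallest adjusted exact permutation p was 0.121. Jun with Dusp1 (r = 0.94, rho = 0.90), Atf3 with Dusp1 (r = 0.90, rho = 0.93) and Fos with Zfp36 (r = 0.89, rho = 0.93) led. Ier2 ran against the rest, with r = −0.57 between Ier2 and the mean of the other 9 members. Its highest value, 1864 normalized counts, was in knockout library 2. Without the 2 libraries farthest from the median, Ier2 with Fosb went from r = −0.77 to 0.17. Ier2 with Fos went from r = −0.57 to −0.71 (farthest for Fos) or −0.46 (farthest for Ier2).

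At day 6 the median r was 0.31 over 8 libraries, with 29 of 45 pairs above 0 and 7 at 0.8 or more (5.98% of all gene pairs). No pair was called, since the smallest adjusted exact permutation p was 0.0625. Fos, Egr1, Atf3 and Zfp36 formed the tightest set, with r from 0.86 to 0.97 over their 6 pairs. Dusp1 ran against the mean of the other members there (r = −0.43), although it had followed them in Rag1-/- hosts (r = 0.93) and at day 4 (r = 0.85). Without IgG library 1 the median r was 0.07.

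Fos with Atf3 was the 1 pair with r of 0.8 or more in all 3 tumour tables, at 0.90, 0.80 and 0.95. A further 18 of the 45 pairs were above 0 in all 3. Jun with Ier3 followed, at 0.75, 0.79 and 0.65, then Junb with Zfp36, at 0.79, 0.61 and 0.65.

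**Figure D5:**
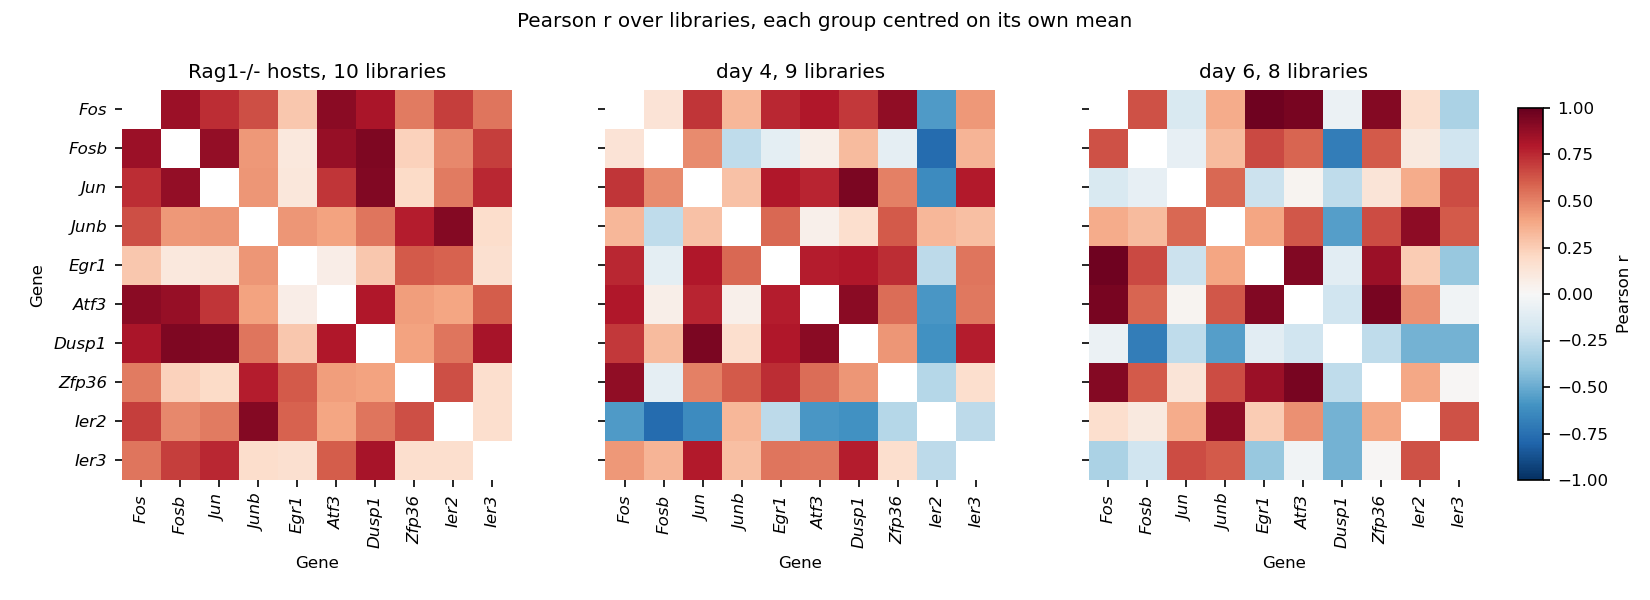
Pearson r between the centred log2 levels of each pair of genes over the libraries of 3 tumour tables, red above 0 and blue below. All 45 pairs are above 0 in Rag1-/- hosts, the Ier2 row turns mostly blue at day 4 and the Dusp1 row at day 6.

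How far the members varied within groups differed between tables. In Rag1-/- hosts the SD within groups of log2 Fosb was 0.78 and of Fos 0.55, larger than in 98.8% and 96.2% of all genes tested, whose median was 0.12. At day 4 Fos had an SD of 0.40, larger than in 66.1% of genes, and Jun one of 0.14, larger than in 8.86%. At day 6 Fos (0.81) and Egr1 (0.72) varied most, and Dusp1 (0.20) least.

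Among 10802 other genes measured in all 3 tumour tables, the 10 most like the average of the members over the 27 centred libraries were Pnrc1, Map3k8, Rab37, Btg1, Tmem189, Rab44, Tnfaip3, Crem, Pfkfb3 and Id2. Their r ran from 0.80 (Pnrc1) to 0.74 (Id2), against a median of −0.04 over all genes ranked. These libraries share cells, depth and tumour make-up, so the values are a description. Map3k8 encodes a kinase that activates MEK, Tnfaip3 a deubiquitinase that limits NF-kB signalling, Btg1 an antiproliferative protein, and Crem a cAMP-responsive factor. Of 23 further immediate early genes ranked, Socs3 came highest (rank 16, r = 0.72) and Myc lowest (rank 9115, r = −0.34).

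The average of the members was also set against the markers of 10 cell types, stress genes and depth in each tumour table, 36 relations in all. None was called after adjustment. The largest was with the 6 T cell markers at day 6 (r = 0.98, rho = 0.98, exact permutation p = 0.00347, adjusted p = 0.125), and r was 0.95 without the 2 farthest libraries. For T cell markers r was 0.17 in Rag1-/- hosts (1 marker tested) and 0.12 at day 4 (4 markers). Neutrophil markers gave r = 0.82 in Rag1-/- hosts (rho = 0.71, adjusted exact permutation p = 0.388, 3 markers), 0.75 at day 4 (rho = 0.73, adjusted exact permutation p = 0.363, 6 markers) and −0.33 at day 6 (4 markers). The red blood cell marker at day 6 gave r = −0.81 (rho = −0.62, adjusted exact permutation p = 0.388), and −0.37 without the 2 farthest libraries. Total reads gave r = −0.24, 0.03 and −0.39 in the 3 tables. The part of these cells in the covariation was not tested.

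The other genes of the response and its pathway were read from 8 further lists, also chosen with earlier results of these data known. Rag1-/- hosts were the only comparison in which limma called any of them. There, 22.7% of all genes were called, 11.3% higher and 11.4% lower in knockout tumours, and the counts of lists this short are to be read against those shares. Of 25 other immediate early genes tested there, 4 rose in knockout tumours and 1 fell, close to the share over all genes. Egr3, an EGR-family factor, rose from 10.4 ± 3.86 to 29.1 ± 3.52 normalized counts (SD, n = 5 each), Sgk1, a serum-induced kinase, from 714 ± 127 to 1044 ± 127, and Myc fell from 16999.7 ± 1278 to 13967 ± 959.9 (limma adjusted p = 0.00179, 0.00440 and 0.00622).

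Of 12 ERK output genes, which encode feedback inhibitors and targets of ERK, 4 rose and 0 fell in knockout tumours of Rag1-/- hosts (11.3% and 11.4% of all genes). Spry4 had a log2 change of 0.57, Dusp5 of 0.49 and Spry2 of 0.56 (limma adjusted p = 0.000198, 0.00438 and 0.00851). Of 8 EGF-family ligands and receptors tested, 2 rose and 0 fell (11.3% and 11.4% of all genes, 22.7% in either direction). These were Hbegf, by 0.81, and Egfr, by 0.51 (limma adjusted p = 0.00138 and 0.00371). Zfp36l1, the paralog of Zfp36, rose by 0.93 (limma adjusted p = 0.000203) and was the 1 gene called of 8 in its list, while Zfp36 itself differed by −0.14.

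Of 12 MAP kinase genes in Rag1-/- hosts, 2 rose and 1 fell, again near the 22.7% of all genes, among them Map2k6, a p38 activator, with a log2 change of 2.64, and Mapk3, which encodes ERK1, with −0.21 (limma adjusted p = 7.75e-05 and 0.00539). Jdp2 rose among 7 other AP-1 genes (0.45) and Elk4 among 9 promoter-binding factors (0.22). Of 12 heat shock and stress genes 0 rose and 2 fell, Ddit3 by 0.34 and Bag3 by 0.26 on the log2 scale. With both directions counted, none of these last 3 lists held a larger share of calls than the 22.7% of all genes. Taken by direction, the fallen heat shock genes exceeded the 11.4% called lower. The 1 risen AP-1 gene of 7 exceeded the 11.3% called higher.

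At day 4, limma called 0 genes of the 8 lists, with a smallest adjusted p of 0.0707, although an unadjusted p under 0.05 was reached by 8 of 12 ERK output genes (15% of all genes). Of the 12 ERK output genes 11 had a log2 change below 0, with a median of −0.52, and of 24 other immediate early genes 20 did, with a median of −0.27 (49.7% and 0.00 over all genes). Ppp1r15a stood at 3391 ± 712 and 1657 ± 209.8 (SD, n = 4 and 5), Phlda1 at 2338 ± 377 and 1391 ± 159, and the EGF-family ligand Ereg at 3263 ± 524 and 1517 ± 366 in wild-type and knockout tumours. Their groups did not overlap (3.85% of all genes were lower without overlap), with limma adjusted p-values of 0.0707, 0.0829 and 0.0707. Each was named as the gene of smallest p in its list. Of 10 EGF-family genes tested at day 4, 5 changes lay above 0 and 5 below, with a median of −0.19. In Rag1-/- hosts the median of the ERK output genes had been 0.18. At day 6 the medians were −0.11 for ERK output and 0.02 for other immediate early genes, with 0 called, and in culture they were 0.13 and −0.08, also with 0 called.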

How the data were processed

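Per the labels' protocols, Trizol RNA entered Illumina TruSeq stranded mRNA libraries. The submitters' processing notes name CASAVA, TopHat, DESeq2 and build mm10, with no version or role, and the counting step is not given in the sources used here. The deposited values, of the signal kind, are counts the authors had normalized per library, 1 table per comparison. Dividing each column by its smallest step gave whole reads for 100% of values within 0.01, which gave depth and RPKM (GENCODE exons by symbol). The authors' p-values stand in the deposited tables, and 18 columns of means and folds were not used. The recovered reads also entered the alternatives edgeR 4.0.16 and DESeq2 1.42.0.

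Each table was tested alone in R 4.3.3 by limma 3.58.1, trend option on, on log2(normalized count + 1). Genes needed an average of at least 10. Two-sided p-values were adjusted by Benjamini-Hochberg over all genes tested and called under 0.05. Fold changes on this scale understate those of low genes. Differences between hosts used both limma estimates with Satterthwaite degrees of freedom. Correlations used levels centred within groups. The tests were tried on simulated data. There limma recovered 75% of 2-fold changes in culture, 99% in Rag1-/- hosts, 50% at day 4 and 50% at day 6. It also called 10 to 14 unchanged genes per table. Changes were placed only in genes with a mean of 50 or more, and each gene was drawn independently. Shifts of many genes together in 1 library were not simulated, so recovery in the real data may be lower. A gene not called at day 4 or day 6 may therefore still have changed. Python 3.11.15 was also used. The members and lists were chosen with earlier results of these data known. The naming rule took all 10 members, up to 3 genes of smallest p per list and comparison, and the 10 genes most like the members. The alternatives were other pseudocounts, filters, scalings and tools, a replicate block, and leaving out single libraries.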

Additional observations from a re-analysis of the deposited data

Results flagged for a closer look

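The knockout effect on Ier3 at day 4 minus that in Rag1-/- hosts was −0.92 on the log2 scale, the only member called by the test of that difference. A single library lay far from the others of its group in 5 of 60 sets of values (10 members in the 6 tumour groups), and chance gives about 1 in 20. These were Egr1 at 87.6 normalized counts in wild-type library 5 and Zfp36 at 1392 in knockout library 3 of the Rag1-/- hosts, both Jun at 5428 and Ier2 at 864 in IgG library 1 at day 6, and Jun at 6648 in antibody library 4 at day 6. No explanation was tested.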

How the results depend on the processing

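Of 696 recomputed changes of members, none that turned direction was called (smallest adjusted p 0.411). Apart from leaving out single libraries in turn, 11 of 381 turned: Fos in culture (0.18 with quantile normalization), Junb in culture (−0.011 with upper-quartile rescaling or quantile normalization, −0.031 with edgeR, −0.030 with DESeq2), Ier2 in culture (0.030 with edgeR, 0.032 with DESeq2) and Atf3 at day 6 (0.032 with upper-quartile rescaling, 0.035 with quantile normalization, 0.018 with edgeR, 0.021 with DESeq2). Members called, 0 in each table, became 1 in Rag1-/- hosts (Ier3) with a mean of 50 or more, upper-quartile rescaling, quantile normalization or DESeq2, and 2 at day 4 (Ier3 and Dusp1) with DESeq2. Over all genes, those settings called 2843 to 3182 in Rag1-/- hosts and 689 at day 4. Without 1 library, members called were 0 to 1 in culture (1 without E0771-P, where 1655 genes were called). In Rag1-/- hosts they were 0 to 1, with 1984 to 3093 genes called. Members with an unadjusted limma p under 0.05 numbered 1 in Rag1-/- hosts but 3 without wild-type library 3 or 5 or knockout library 5, and 2 without knockout library 2 or 3, with quantile normalization or with the replicate block. Such a p was reached by 4615 of 12795 genes in all, and by 4237 to 4730 genes in those other settings. At day 6 the members numbered 2, but 3 with the block or without IgG library 3, and 1 without IgG library 4 or antibody library 1, 2 or 3 and with no filter, a mean of 50 or more, or either rescaling. Over all genes at day 6 it was 1218, against 2017 with the block and 931 without IgG library 3. It was 488 to 2381 in the settings with 1 member. The cause was not tested.

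Leaving out 1 library also turned 39 of 315 changes. In culture these ran from −0.23 to 0.15 (Fos), −0.52 to 0.059 (Fosb), −0.35 to 0.38 (Junb), −0.52 to 0.060 (Atf3), −0.035 to 0.57 (Dusp1) and −0.55 to 0.48 (Ier2). In Rag1-/- hosts they ran from −0.31 to 0.16 (Fos), −0.037 to 0.26 (Dusp1) and −0.11 to 0.024 (Ier2). At day 4 they ran from −0.24 to 0.069 (Fos), −0.23 to 0.13 (Egr1) and −0.10 to 0.11 (Ier2). At day 6 they ran from −0.65 to 0.034 (Fos), −0.011 to 0.26 (Jun), −0.32 to 0.30 (Egr1), −0.19 to 0.15 (Atf3), −0.083 to 0.092 (Dusp1) and −0.32 to 0.024 (Zfp36). Differences between hosts, recomputed without each library as a choice made after seeing the data, ran from −0.24 to 0.23 (Fos), −0.61 to 0.0076 (Fosb) and −0.056 to 0.15 (Ier2). Over all genes, limma's 5 calls at day 4 became 3 to 50 without 1 library.

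With the replicate number as a block, 0 members were called in each of the 3 tumour tables, and 2411 genes were called in Rag1-/- hosts, 2 at day 4 and 0 at day 6. At day 4 the block left out knockout library 5, since no wild-type library carries its number. Same-numbered libraries correlated between −0.20 and 0.45, with both signs in each table. Wild-type library 2 of the Rag1-/- hosts and IgG libraries 1 and 4 of day 6 matched their own number best. The rest matched another number better. So few libraries cannot settle whether the numbers pair them. At day 6 the block moved the genes with an unadjusted limma p under 0.05 from 1218 to 2017. No paired analysis was possible in culture because its libraries carry no replicate numbers.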
